A study of Mus musculus with 27 samples.

Results

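The genes described here are Fut1, Fut2, Sec1, Fut4 and Fut9, the mouse fucosyltransferases that build H and Lewis epitopes. They were chosen by platform gene symbol, which gave 6 probe sets of 5 genes, out of 702 mouse probe sets of 573 genes and 1813 probe sets in all. Fut2 had a pair of probe sets, called at and s_at after the endings of their names, and each other gene had 1. All groups share the same background, wild-type C57BL/6 males of 6 to 8 weeks, and differ by tissue alone; C57BL/6 is an inbred strain. There were 9 tissues: kidney, brain, testis, liver and lung, and the lymphoid and blood-forming tissues bone marrow, spleen, thymus and lymph node. Biotin-labelled material from total RNA was measured on a custom Affymetrix glycogene array, with 3 arrays per tissue and 27 in all. Whether replicate arrays stand for different animals, pools or repeat hybridisations is not stated, so that p-values measure the spread between arrays, which may be technical.

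Fucosyltransferases move fucose from the donor GDP-fucose onto glycan chains of glycoproteins and glycolipids. Fut1, Fut2 and Sec1 belong to the family that places fucose on a terminal galactose and so makes the H epitope, the precursor of the blood group A and B antigens. Fut4 and Fut9 place fucose on the N-acetylglucosamine of N-acetyllactosamine chains and so make Lewis x, also known as CD15 or SSEA-1. On sialylated chains of leukocytes Fut4, together with Fut7, makes sialyl Lewis x, the epitope that selectins bind. In mice Fut9 is known as a Lewis x synthase of brain and kidney.

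The values below are deposited intensities on a linear scale, and the tests were made on their log2 values. The number of arrays, and not a read depth, limits the precision. Levels of different probe sets cannot be compared with each other, so that each is compared across tissues only. Summed marker intensities below are likewise compared across tissues, and the brightest probe sets weigh most in them. Array medians over all probe sets ran from 221.5 to 243.7, no arrays held identical values, and the lowest correlation between arrays of the same tissue across mouse probe sets was 0.935. Markers of the labelled tissues were measured in part. All 3 measured hepatocyte markers peaked in liver, both lung epithelium markers in lung, all 6 neutrophil and granulocyte precursor markers in bone marrow, 5 of 6 neuron and glia markers in brain, and the thymic epithelium chemokine Ccl25 in thymus. Of 3 high endothelial venule markers 2 peaked in lymph node, of 3 T cell markers 1 peaked in thymus and the others in lymph node, and of 4 B cell markers 1 peaked in lymph node and the others in spleen. Of the 4 kidney epithelium markers and the 4 testis germ cell markers looked for, 0 were measured. In whole tissues, fewer cells of a type and less RNA per cell cannot be told apart.

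Fut1, Fut2 and Sec1 lie near each other on mouse chromosome 7 in the RefSeq assembly GRCm38.p6, where Sec1 is the next protein-coding gene after Fut2, and Ntn5 follows Sec1. Fut4 lies on chromosome 9 and Fut9 on chromosome 4. RefSeq promoter windows, 300 bases that end 50 bases inside the gene, were at hand for Fut1, Sec1 and Fut4. They are shown because Sec1 had its highest mean in testis, which its chromosome 7 relative Fut1 and the Lewis gene Fut4 did not. Capitals mark matches to the letters GGGCGG, a GC box, or CGTCA, the core of a cyclic AMP response element, on either strand. The windows are chr7:45694353-45694652 on the minus strand for Sec1, chr7:45617356-45617655 on the plus strand for Fut1 and chr9:14752073-14752372 on the minus strand for Fut4.
Sec1: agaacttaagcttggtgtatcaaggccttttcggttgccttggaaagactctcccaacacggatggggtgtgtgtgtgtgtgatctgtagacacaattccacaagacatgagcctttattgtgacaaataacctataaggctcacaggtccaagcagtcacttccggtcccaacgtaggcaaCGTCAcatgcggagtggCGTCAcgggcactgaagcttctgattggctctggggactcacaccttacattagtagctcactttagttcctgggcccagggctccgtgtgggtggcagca
Fut1: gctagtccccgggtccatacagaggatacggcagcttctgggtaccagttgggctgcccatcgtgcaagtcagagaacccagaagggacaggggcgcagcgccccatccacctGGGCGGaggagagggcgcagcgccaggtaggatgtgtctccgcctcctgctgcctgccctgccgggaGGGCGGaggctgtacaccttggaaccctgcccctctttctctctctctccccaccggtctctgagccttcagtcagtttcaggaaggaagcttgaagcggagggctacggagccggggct
Fut4: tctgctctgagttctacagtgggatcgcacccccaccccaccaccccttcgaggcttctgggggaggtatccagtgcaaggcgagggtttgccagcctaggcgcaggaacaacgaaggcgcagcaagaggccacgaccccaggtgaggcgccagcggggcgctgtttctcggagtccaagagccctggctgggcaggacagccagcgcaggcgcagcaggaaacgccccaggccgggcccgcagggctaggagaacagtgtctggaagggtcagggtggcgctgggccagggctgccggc
The Sec1 window held 2 matches to CGTCA and 0 to GGGCGG, with a GC content of 51.7%. The Fut1 window held 2 matches to GGGCGG and 0 to CGTCA, with a GC content of 64.7%, and the Fut4 window held 0 of either. CCAAT occurred 1 time in the Sec1 window and in neither other window, and TATAAA in none of the 3. Of all 32851 promoter windows in the table, 20.8% held CGTCA, 35.7% GGGCGG, 37.4% CCAAT and 13.6% TATAAA on either strand. These matches describe letters and not bound sites.

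Of the 5 genes, Fut9 was the 1 with a large range among tissues. Its tissue means spanned 4.32 on the log2 scale, kidney over lung, where lung lay near the floor of 16 set on the values; the span was 2.80 with a floor of 64 and 3.59 with an offset of 16. The means of Sec1 spanned 1.03 (2.04-fold), and those of Fut1, Fut2 s_at, Fut4 and Fut2 at spanned 0.61, 0.61, 0.49 and 0.32. The median span of the 6 probe sets was 0.61, against 1.07 over all 702 mouse probe sets. A probe set was called where its Benjamini-Hochberg adjusted p, over all 702, was under 0.05 and its log2 difference, or for the 9 tissues together its span, was at least 1. By limma's moderated F test over the 9 tissues, 2 of the 6 probe sets were called, Fut9 (adjusted p = 8.1e-13) and Sec1 (adjusted p = 0.000392), against 52.3% of all mouse probe sets. Without the size threshold, an added rule chosen after seeing the data, all 6 had an adjusted p under 0.05, against 86.3% of all. The Sec1 span lay at the threshold: it was 0.99 without lung replicate 1, 0.98 without testis replicate 2 and 0.92 without testis replicate 3. It was also under the threshold with median centring (0.998) and with an offset of 16 (0.969).

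**Figure D1:**
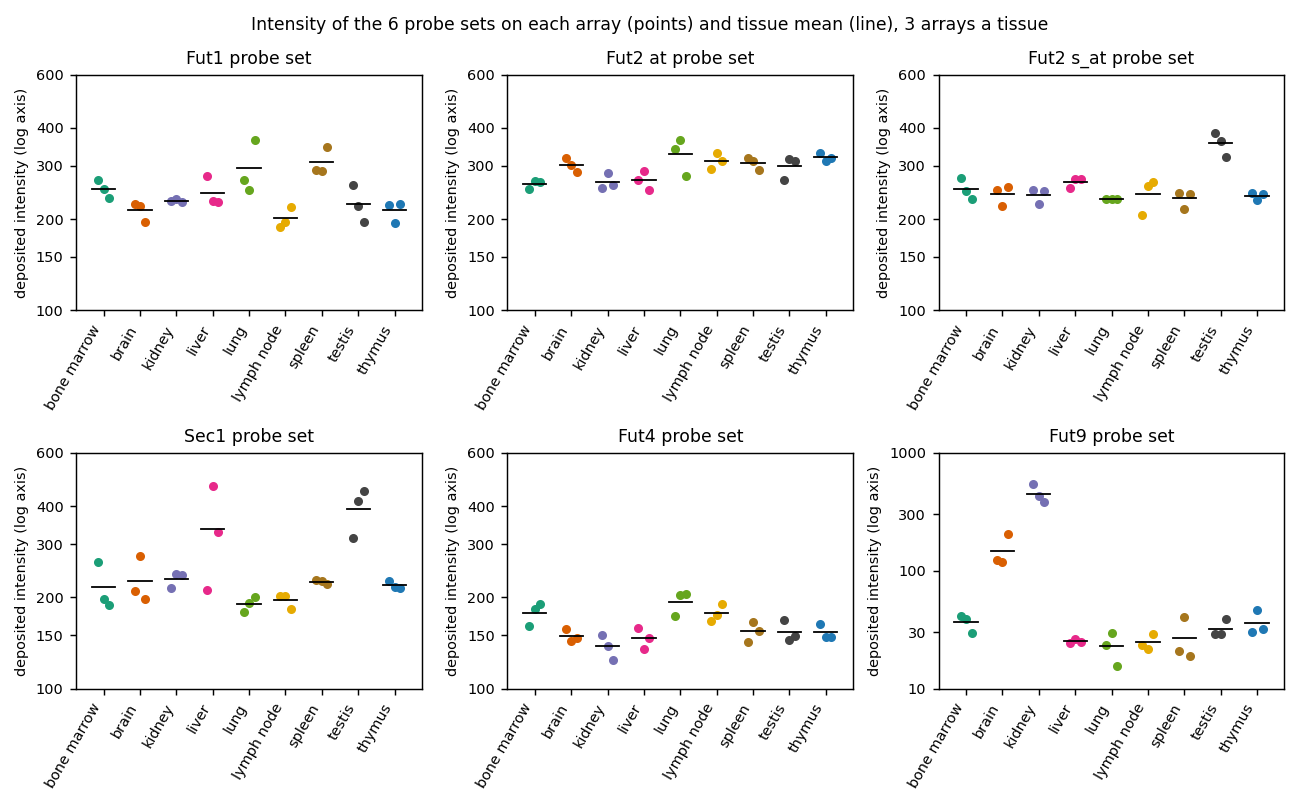
Deposited intensity (log axis) of each of the 6 probe sets on every array (points, 3 per tissue) with the tissue mean (line); the Fut9 panel has a wider axis. Fut9 stands out in kidney and brain, Fut2 s_at in testis and Sec1 in testis and on part of the liver arrays. In the Fut1, Fut2 at and Fut4 panels no tissue lies apart from all others, and Fut1 arrays run from 188.7 to 366.1.

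Fut9, which completes Lewis x, was highest in kidney and next in brain, and low in the 7 other tissues. In kidney its intensities were 539.3, 432.4 and 381.3, above all 24 other arrays. In brain they were 124.2, 117.5 and 203.2. In the 7 other tissues the 21 arrays ran from 15.4 to 46.7 with a median of 29.1, so that every brain array also lay above all of these. Kidney was the tissue above all other arrays for 4.13% of the mouse probe sets.

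Against the mean of the other 8 tissues, Fut9 rose in kidney by 3.69 ± 0.20 (SE, log2 scale, 12.9-fold, limma adjusted p = 3.31e-13), where 6.55% of mouse probe sets were called higher. It rose in brain by 1.85 ± 0.20 (3.60-fold, limma adjusted p = 2.72e-08), where 5.56% were called higher. Since levels in the other tissues lay near the floor of 16, these folds are ratios of signals: with a floor of 64 the kidney difference was 2.66 and the brain difference was 0.82, under the size threshold. Kidney over brain was 3.11-fold (1.64 on the log2 scale, 95% interval 1.09 to 2.18, limma adjusted p = 1.69e-05), and brain over bone marrow, the next tissue, 3.96-fold (limma adjusted p = 9.08e-07).

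Below brain, the order for Fut9 was bone marrow, thymus, testis, spleen, liver, lymph node and lung. Their means were 36.6 ± 6.1, 36.3 ± 9.0, 32.3 ± 5.7, 26.9 ± 12.1, 25.2 ± 1.1, 24.7 ± 3.9 and 22.9 ± 7.2 (SD, n = 3 each). None of the neighbours in that part of the order differed beyond the spread, with adjusted p of 0.288 to 0.997 by limma. Further apart in it, bone marrow over lung (1.62-fold, limma adjusted p = 0.037) and thymus over lung (1.595-fold, limma adjusted p = 0.0454) passed, under the size threshold. With the floor of 64 the bone marrow and lung difference was 0.000. Of the 36 tissue pairs, 15 were called for Fut9, against 17.0% of the pair tests of all mouse probe sets. All 15 had kidney or brain on 1 side. At any size 17 of the 36 had an adjusted p under 0.05 by limma, against 42.5% of those tests. Against the mean of the other 8 tissues, Fut9 was also called lower in lung (-1.17 ± 0.20, limma adjusted p = 3.26e-05) and lymph node (-1.02 ± 0.20, limma adjusted p = 0.000144), where 1.28% and 0.997% of mouse probe sets were called lower. That mean holds kidney and brain, and with their median in its place the differences were -0.595 in lung and -0.465 in lymph node. Both calls were also lost with the floor of 64 (-0.496 in each) and with an offset of 16 (-0.893 in lung and -0.807 in lymph node). The lung call was lost too without lung replicate 3 (-0.93). For lymph node the call was lost with quantile normalization (-0.965) and with median centring (-0.999). It was also lost without any 1 of 5 arrays, brain replicate 3, lymph node replicate 1 or 2, lung replicate 2 or spleen replicate 2 (-0.999 to -0.936).

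Fut9 was lower in the 4 lymphoid and blood-forming tissues (bone marrow, lymph node, spleen and thymus) than in the other 5 by 1.12 on the log2 scale (log2 difference -1.12 ± 0.13, limma adjusted p = 3.51e-08). It was the 1 of 6 member probe sets called in that contrast, where 3.13% of mouse probe sets were called lower and 11.5% higher. At any size, 3 of the 6 were lower there, Fut9, Sec1 (-0.29 ± 0.09, limma adjusted p = 0.00661) and Fut2 s_at (-0.13 ± 0.05, limma adjusted p = 0.0184), against 34.6% of all. The other 5 include kidney and brain, while the Fut9 means of liver, lung and testis were 25.2, 22.9 and 32.3, against 24.7 to 36.6 in the lymphoid and blood-forming tissues. The call was lost with the floor of 64 (-0.79) and with an offset of 16 (-0.94), both by size and not by adjusted p.

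The arrays also carry 839 human probe sets, with a median intensity of 205.2 and a 95th percentile of 590.1; which of them bind mouse transcripts was not tested. The human FUT9 set read 24.6, 36.7 and 38.2 in kidney and 34.2, 21.6 and 26.1 in brain, within its range of 21.6 to 63.8 over the 27 arrays. The kidney and brain peaks of the mouse set were thus absent from the human set, whose levels cannot be set against it since its probes differ.

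**Figure D2:**
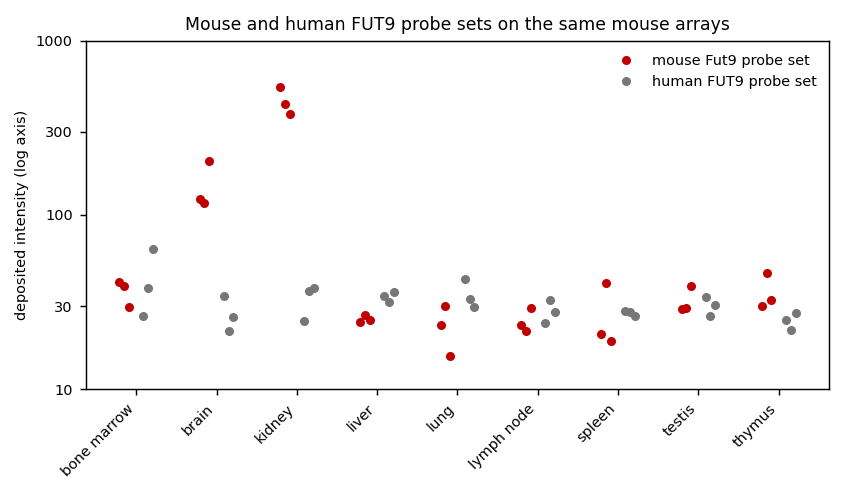
Intensity (log axis) of the mouse Fut9 and the human FUT9 probe set on each of the 27 arrays by tissue. The mouse set is high in kidney and brain, where the human set stays between 21.6 and 38.2.

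The summed intensity of 6 neuron and glia markers was highest in brain, at 6796.5 to 7755.9, and was 2936.0 to 3165.3 on kidney arrays and 2409.1 to 4073.7 in the 7 other tissues. Of the 6 genes, 2 were called higher in brain, Ptn, the growth factor pleiotrophin (11.04-fold, limma adjusted p = 7.49e-18), and the chemokine Cx3cl1, also called fractalkine (10.13-fold, limma adjusted p = 2.21e-21). In kidney 0 of the 6 were called, but Cx3cl1 had its next highest mean there, at 565.6 (1.98-fold above the other tissues, limma adjusted p = 3.01e-11, just under the size threshold), while Ptn was at 128.3. St8sia3, an alpha2,8-sialyltransferase, peaked in testis and not in brain. The part of these cells in the brain level of Fut9 was not tested.

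The 3 genes with the tissue pattern most like that of Fut9, among 285 genes with a span of at least 1, were Mdk, Ugt8a and Bmp7. The likeness was Pearson's r of the 9 tissue means on the log2 scale, a description across tissues measured on the same arrays. Mdk, the heparin-binding growth factor midkine, had r = 0.947, with means of 714.3 ± 63.5 in kidney and 474.4 ± 9.3 in brain, and 344.7 to 419.3 elsewhere. Ugt8a, which makes galactosylceramide, the main glycolipid of myelin, had r = 0.932, with 685.7 ± 71.8 in kidney and 511.3 ± 85.3 in brain (SD, n = 3 each), and 21.9 to 69.6 elsewhere. Bmp7, a bone morphogenetic protein, had r = 0.786, with 375.9 ± 48.1 in kidney. Its brain mean, 166.6 ± 11.6, lay below those of thymus, 225.8 ± 7.6, and testis, 193.8 ± 35.1, so that it shared the kidney peak and not the brain level.

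**Figure D3:**
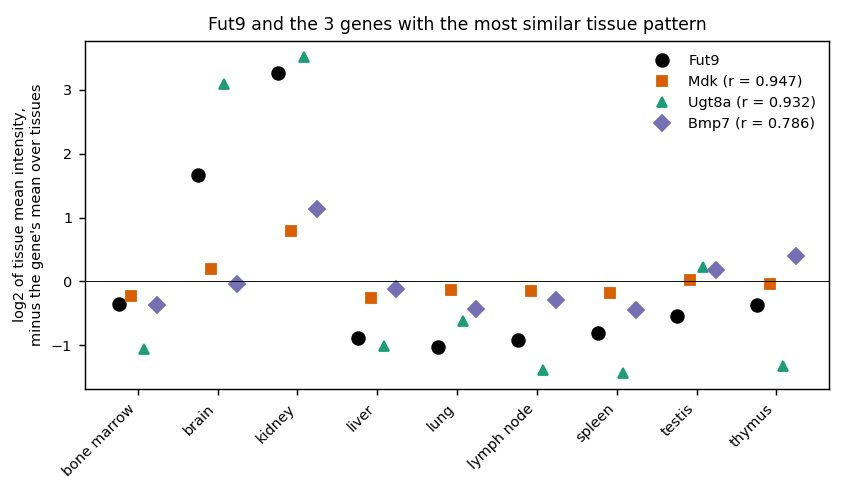
Log2 of the tissue mean intensity of Fut9 and of Mdk, Ugt8a and Bmp7, each minus the gene's own mean over the 9 tissues (n = 3 arrays per tissue). All 4 genes peak in kidney; Fut9, Mdk and Ugt8a have their next highest mean in brain, and Bmp7 in thymus.

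The signal of Fut4, which makes Lewis x and contributes to selectin ligands of leukocytes, varied little. It was highest in lung (173.6, 203.0 and 204.6), next in bone marrow (161.1, 183.3 and 189.6) and lymph node (167.3, 175.5 and 189.9), and lowest in kidney (150.5, 138.4 and 124.4). The groups overlap: the lowest lung array lay below the highest arrays of bone marrow and lymph node. Lung exceeded the mean of the other 8 tissues by 0.31 ± 0.08 on the log2 scale (1.24-fold, limma adjusted p = 0.00142), and kidney lay below it (-0.24 ± 0.08, limma adjusted p = 0.0105), both under the size threshold. The kidney value rested in part on kidney replicate 3, without which it was -0.17 (limma adjusted p = 0.141). At any size, 25.8% of mouse probe sets were higher in lung and 28.1% lower in kidney.

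Of the 36 tissue pairs, 0 were called for Fut4, against 17.0% of the pair tests of all mouse probe sets. At any size 12 had an adjusted p under 0.05 by limma, against 42.5% of those tests. The largest difference, lung over kidney, was 1.41-fold (limma adjusted p = 0.000285). No neighbours in the order of tissues passed the test, with adjusted p of 0.234 to 0.986 by limma. Lymphoid and blood-forming tissues minus the other 5 gave 0.09 ± 0.05 for the Fut4 set (log2 scale, 95% interval -0.01 to 0.19, limma adjusted p = 0.0887). A signal difference of 1 lies outside this interval, which does not bound the transcript difference if part of the signal is unspecific.

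Summed markers of myeloid and endothelial cells are given beside the small Fut4 differences. The summed intensity of 6 neutrophil and granulocyte precursor markers was 18599 to 20876 on bone marrow arrays and 2737.9 to 3506.4 on lung arrays, where Fut4 was highest. Most of the bone marrow sum was Ltf (mean 14124, against 473.3 in lung), but all 6 markers had their highest mean in bone marrow. The sum of 3 macrophage and monocyte markers was 3156.6 to 5390.4 in bone marrow, 1229.3 to 1888.0 in lung and 280.1 to 422.2 in kidney. Of these, Mrc1 was lower in bone marrow (183.2) than in lung (592.2) and lower again in kidney (112.9), the order of Fut4 in these tissues. Mrc1 was highest in spleen (1360.9), and Clec7a and Ccr2 were higher in bone marrow than in lung. Among endothelial markers all 5 peaked in lung, with a sum of 10865 to 14167 there and 619.2 to 2414.2 in the other tissues. The part of any of these cells in the Fut4 level was not tested. The gene most like Fut4 across tissues was Tnfsf13b, the B cell survival factor BAFF (r = 0.921), followed by the stem cell factor receptor Kit (r = 0.806) and the leptin receptor Lepr (r = 0.805), all with their highest mean in lung. Since Fut4 had no called difference, these r values, selected as the highest, follow small differences.

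Sec1, of the H-type family, had its highest mean in testis and its next in liver. In testis its intensities were 314.2, 414.8 and 447.4, and in liver 211.6, 465.4 and 328.6. The 7 other tissues had means between 190.6 ± 10.8 in lung and 230.6 ± 13.4 in kidney (SD, n = 3 each). The testis arrays overlapped with the liver arrays and lay above the arrays of every other tissue, and liver replicate 1 lay within the range of those tissues.

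Testis exceeded the mean of the other 8 tissues for Sec1 by 0.79 ± 0.14 (1.73-fold, limma adjusted p = 5.13e-05), under the size threshold. Liver exceeded it by 0.47 ± 0.14 (limma adjusted p = 0.00804), a value of 0.20 without liver replicate 2 (limma adjusted p = 0.287) and 0.76 without liver replicate 1. At any size, 18.5% of mouse probe sets were higher in testis and 18.5% in liver. Of the 36 tissue pairs, 1 was called for Sec1, testis over lung (2.04-fold, limma adjusted p = 7.16e-05). This difference is the Sec1 span given above (1.03 on the log2 scale). It lay at the threshold and was 0.92 without testis replicate 3. Of the pair tests of all mouse probe sets 17.0% were called. Testis over liver was 0.28 on the log2 scale (95% interval -0.11 to 0.68, limma adjusted p = 0.257). No other neighbours in the order passed either, the lowest adjusted p being 0.0613 by limma for liver over kidney.

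The genes most like Sec1 across tissues were Xylt1, a xylosyltransferase that starts glycosaminoglycan chains (r = 0.924), Gcnt3, a core 2 branching enzyme (r = 0.916), and Gfpt1, which makes glucosamine-6-phosphate (r = 0.856). Gcnt3 and Gfpt1 peaked in testis, at 507.7 ± 10.03 and 924.1 ± 245.5, and Xylt1 in liver, at 433.0 ± 35.7, with testis next at 420.5 ± 52.6.

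The Fut2 probe sets, whose gene makes the secretor type H epitope of epithelia, gave different patterns. The s_at set read 384.6, 363.4 and 320.8 in testis, above all 24 other arrays, which ran from 206.9 to 273.5. The at set read 268.8, 316.0 and 312.0 in testis, within the range of the other tissues. Testis stood above all other arrays for 3.28% of mouse probe sets.

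Against the mean of the other 8 tissues, testis was higher by 0.55 ± 0.07 on the s_at set (1.46-fold, limma adjusted p = 8.89e-07) and by 0.02 ± 0.07 on the at set (95% interval -0.13 to 0.17, limma adjusted p = 0.829). The log2 ratio of the s_at to the at set averaged 0.25 on the 3 testis arrays (0.04 to 0.52), against -0.28 on the 24 others (-0.64 to 0.12). These ratios were looked at because the sets had been seen to differ in testis, so that they are given without a test. On Affymetrix arrays the ending s_at is used for sets whose probes can match more than 1 transcript, and the Sec1 set has this ending too. Probe sequences were not used here, so that cross-hybridisation between Fut2, Sec1 and other transcripts was not tested.

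Across the 9 tissue means, Fut2 s_at and Sec1 correlated with r = 0.89, and Fut2 at and Sec1 with r = -0.31. The Fut2 sets themselves had r = -0.15. The order of the at set ran from lung (341.8, 363.8 and 278.3) and thymus (330.7, 311.1 and 318.7) to bone marrow (251.1, 267.7 and 265.8). Its largest difference was 1.25-fold, lung over bone marrow (limma adjusted p = 0.0098). Without lung replicate 2 that limma adjusted p was 0.0754. At any size 7 of 36 pairs had an adjusted p under 0.05, against 42.5% of the pair tests of all mouse probe sets. Genes most like the at set were Ccl21b, a lymphoid chemokine (r = 0.773), Pkd1, the polycystin gene (r = 0.745), and Osmr, the oncostatin M receptor (r = 0.740). The at set had no called difference, so that these r values, selected as the highest, follow small differences. On the s_at set 8 of 36 pairs had an adjusted p under 0.05 at any size, against the same 42.5%. All 8 had testis on the higher side.

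**Figure D4:**
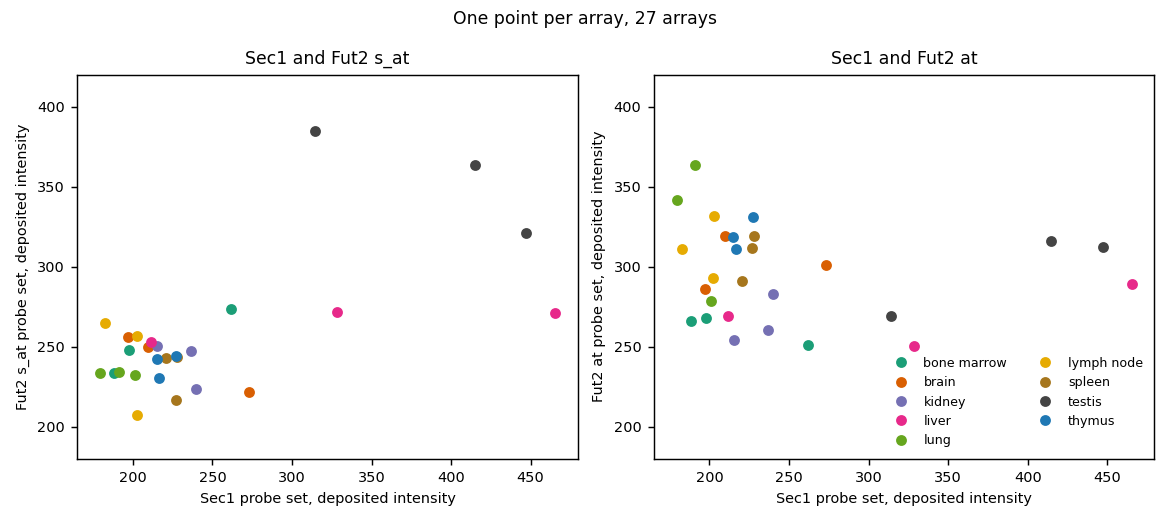
Intensity of the Sec1 probe set (horizontal) against the Fut2 s_at set (left) and the Fut2 at set (right), one point per array for 27 arrays, coloured by tissue. On the left the 3 testis arrays are high on both axes and liver is high for Sec1 on part of its arrays; on the right testis lies within the range of the other tissues on the vertical axis.

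Fut1, whose human counterpart makes the H antigen of red blood cells, was highest in spleen and lung and lowest in lymph node. Its intensities were 290.3, 287.7 and 345.2 in spleen, 268.7, 249.3 and 366.1 in lung, and 188.7, 196.4 and 218.8 in lymph node. The spleen arrays lay above every lymph node array, while the lung arrays overlapped with those of spleen, bone marrow, liver and testis. Spleen exceeded the mean of the other 8 tissues by 0.40 ± 0.10 (1.32-fold, limma adjusted p = 0.00143), lung by 0.31 ± 0.10 (limma adjusted p = 0.00904), and lymph node lay below it (-0.28 ± 0.10, limma adjusted p = 0.0189), all under the size threshold. At any size, 25.8% of mouse probe sets were higher in spleen, 25.8% higher in lung and 19.2% lower in lymph node.

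The lung value of Fut1 rested in part on lung replicate 3, without which it was 0.15 (limma adjusted p = 0.247), and the lymph node value had a limma adjusted p of 0.111 without lymph node replicate 1 and 0.0833 without lymph node replicate 2. Of the 36 pairs, 0 were called for Fut1, against 17.0% of the pair tests of all mouse probe sets. At any size 11 had an adjusted p under 0.05 by limma, against 42.5% of those tests. The largest difference was spleen over lymph node (1.53-fold, limma adjusted p = 0.00124). No neighbours in the order of tissues passed the test, with adjusted p of 0.226 to 0.989 by limma. The most similar gene was Pf4, the platelet chemokine (r = 0.793), which also peaked in spleen (1893.6 ± 534.1), followed by Fgf22 (r = 0.739) and the collagen gene Col14a1 (r = 0.724). Fut1 itself had no called difference, so that these r values, selected as the highest, follow small differences.

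**Figure D5:**
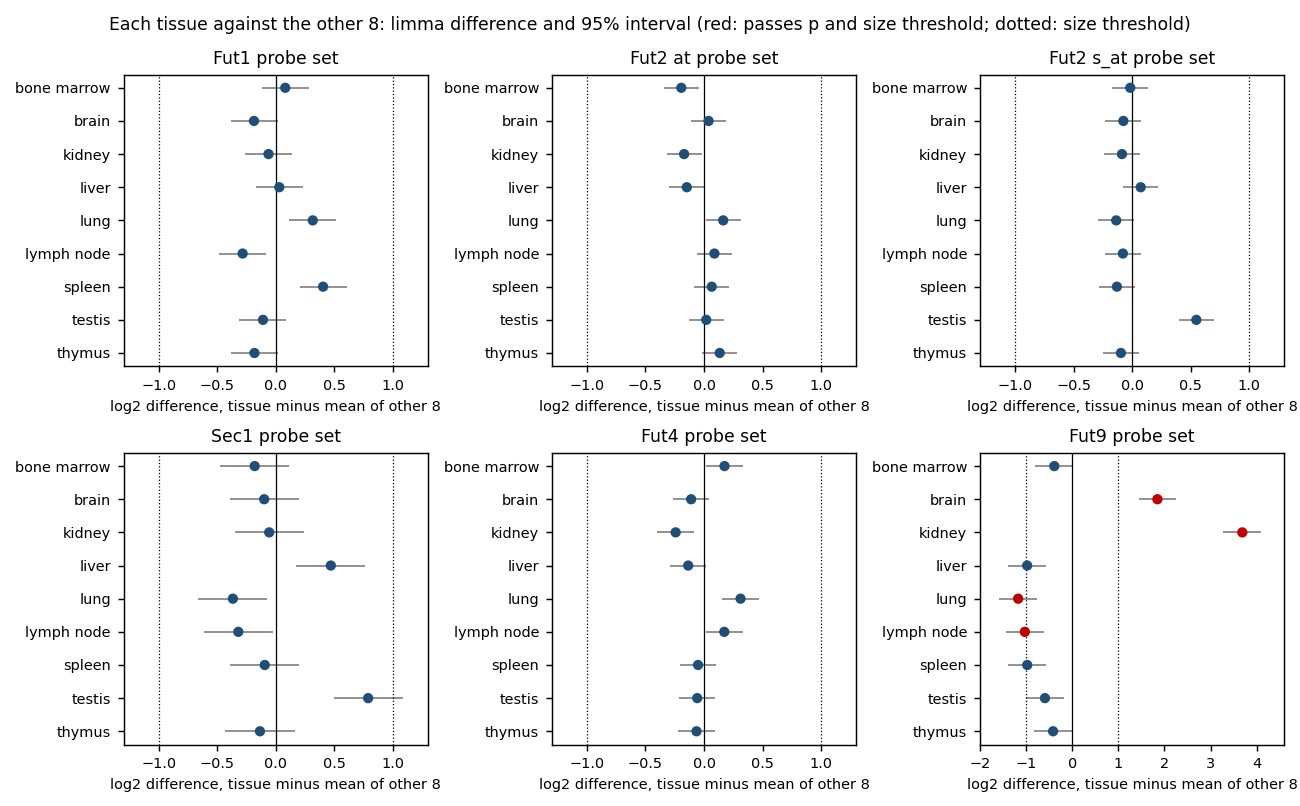
Log2 difference of each tissue from the mean of the other 8 for the 6 probe sets, with the 95% interval from limma; red points passed the adjusted p and the size threshold (dotted lines), and the Fut9 panel has a wider axis. Called differences occur in the Fut9 panel alone, for kidney, brain, lung and lymph node, while testis is highest for Fut2 s_at and Sec1.

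Other genes of fucosylation and of the chains it acts on were taken as lists chosen with earlier results known. Of 34 gene symbols looked for, some of them older and newer symbols of the same gene, 25 were measured. By the F test over tissues 13 of these were called, against 287 of 573 genes in all. The median span of the 25 was 1.01, against 1.003 over all genes. In kidney 1 of the 25 rose and 1 fell, and in brain 0 rose and 2 fell. Over all mouse probe sets 6.55% were called higher and 6.70% lower in kidney, and 5.56% higher and 10.7% lower in brain. In the other contrasts named next, 13.4% were called lower in testis, 9.54% higher in lung and 9.97% lower in liver.

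The GDP-fucose supply genes Gmds and Fpgt, the 2 measured of 7 symbols looked for, had spans of 0.35 and 0.36 and were not called. Of 6 other fucosyltransferases, Fut7, Fut8 and Fut11 were called by the F test. Fut7, the partner of Fut4 in sialyl Lewis x synthesis, was highest in bone marrow (451.6 ± 76.4) and lymph node (391.7 ± 12.0, SD, n = 3 each). Testis came next (349.9 ± 51.5), while spleen (270.3 ± 29.6) and thymus (239.1 ± 4.1) were lower. The Fut7 span of 1.01 lay at the size threshold. Fut8, which adds the core fucose of N-glycans, ranged from 643.4 ± 93.3 in kidney to 161.1 ± 4.6 in liver and fell in liver (2.69-fold lower, limma adjusted p = 2.6e-09). Fut11 was highest in lung (489.2 ± 78.3).

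Of the enzymes that make the acceptor chains, B4galt1, a lactosamine galactosyltransferase, fell in brain, where Fut9 rose (4.14-fold lower, limma adjusted p = 1.28e-11), and in testis (2.23-fold lower, limma adjusted p = 1.56e-07). In brain the related B4galt2, B4galt3 and B4galt4 went the other way, by 0.36, 0.07 and 0.43 on the log2 scale, and were not called. B4galt4 rose in lung (5.76-fold, limma adjusted p = 2.72e-15) and fell in liver (2.21-fold lower). Of 3 type 1 chain galactosyltransferases, B3galt1 and B3galt2 were called by the F test, with spans of 1.52 and 1.11. The B3galt2 span ran from lung (468.4 ± 60.7) to liver (1136.5 ± 728.5, SD), where the arrays were uneven. Gcnt1, a core 2 branching enzyme of O-glycans, rose in kidney beside Fut9 (2.39-fold, 943.0 ± 48.5, limma adjusted p = 1.03e-10). Of 3 sialyltransferases of sialyl Lewis chains, St3gal6 rose in lung (2.25-fold, limma adjusted p = 1.72e-08) and fell in liver (2.63-fold lower), and St3gal3 was called by the F test with a span of 1.24.

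Of 5 measured selectins and ligand carriers, Selplg and Glycam1 were called by the F test. Selplg, the P-selectin ligand that carries sialyl Lewis x on leukocytes, had means of 3182.6 ± 884.5 in bone marrow and 3954.8 ± 250.7 in lymph node, against 329.8 ± 19.5 in kidney (SD, n = 3 each). It rose in all 4 lymphoid and blood-forming tissues, where 6.13% of mouse probe sets were called higher in bone marrow, 11.8% in lymph node, 9.97% in spleen and 5.56% in thymus; Fut4 was called in none of them. Glycam1, an L-selectin ligand of lymph node venules, rose in lymph node (16.23-fold, limma adjusted p = 1.82e-19). Fucosidases were not measured among the named mouse genes.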

How the data were processed

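The authors deposited linear intensities, 1 for each of 1813 probe sets on each of 27 arrays. How background was corrected and arrays were scaled is not given in the sources used, and values were kept as deposited. Names came from GEO's platform annotation, matched by gene identifier to RefSeq GRCm38.p6, which gave 702 mouse probe sets; 839 human, 57 control, 2 with several symbols and 213 unnamed probe sets were not tested. Values under 16 were raised to 16 (1 of those of the 6 probe sets) and log2 was taken.

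limma 3.58.1 in R 4.3.3 (lmFit, eBayes) was fitted over all 27 arrays with 1 coefficient per tissue. Comparisons were the F test, 36 tissue pairs, each tissue against the mean of the 8 others, and the 4 lymphoid or blood-forming tissues minus the remaining 5. Benjamini-Hochberg adjustment ran over the 702 probe sets within each contrast, so that adjusted p-values are for all of them. Calls needed an adjusted p under 0.05 and a log2 difference of at least 1. For lists, 1 probe set per gene was used, that with the highest mean. The script was tested on simulated data. All member probe sets are named, as are called list genes and the 3 most similar genes of each member. Members and lists were chosen with earlier results of these data known. Promoter sequences are RefSeq's, with 3 of 5 genes matched. Alternatives were 2 normalizations, a filter, another floor, an offset, 1 probe set per gene, eBayes with trend and robust, array weights, a block for the number in the titles, a median reference and leaving out each array.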

Additional observations from a re-analysis of the deposited data

How the results depend on the processing

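Fut9 kept its kidney call under every alternative that tested it (2.66 to 3.97 on the log2 scale), and its brain call under all except the floor of 64 (0.82; 1.42 to 2.34 otherwise). Counts here are of calls, 1 for each probe set and contrast, so that a probe set can count more than 1 time. With all arrays and the main settings, the calls higher, lower and in the lymphoid contrast were all those of Fut9. Over pairs 15 of the 16 calls were of Fut9. With the dimmest probe sets left out, 468 remained and Fut9 and Fut4 were not among them. This left 1 call among tissues, 0 higher, 0 lower, 0 in the lymphoid contrast and 1 over pairs. With the floor of 64, counts were 1 higher, 0 lower and 0 in the lymphoid contrast. With the offset of 16 they were 1 among tissues, 0 lower and 0 in the lymphoid contrast. Median centring gave 1 among tissues and 1 lower, and the median reference 0 lower, where Fut9 in testis turned to 0.093. Without the size threshold, chosen after seeing the data, counts were 6 among tissues, 8 higher, 9 lower, 3 in the lymphoid contrast and 68 over pairs, against 2, 2, 2, 1 and 16. The 8 and 9 are calls over 9 contrasts of 6 probe sets, for which a summed share over all was not worked out. At any size, 86.3% of all mouse probe sets passed among tissues and 34.6% were lower in the lymphoid contrast. Of the pair tests of all mouse probe sets 42.5% passed. Leaving out each array gave 1 to 2 calls among tissues, 2 higher, 1 to 3 lower, 1 in the lymphoid contrast and 15 to 18 over pairs. With the title number as a replicate block, counts were 2, 2, 2, 1 and 16, unchanged. Same-numbered arrays of different tissues had a median correlation of deviations of 0.02 (-0.37 to 0.58), and 8 of 27 arrays correlated best with their own number, so that numbers were not taken as pairs. Signal near the floor limits the Fut9 folds.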

Other observations

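Of the 7 human sets for FUT1, FUT2, FUT4 and FUT9, tissue spans were 0.17 to 0.70 on the log2 scale, a range that holds the spans of mouse Fut1, both Fut2 sets and Fut4. Whether the signal of these mouse sets is specific was not tested, so that their small spans need not mean even expression. The human FUT1 set read 351.8, 297.1 and 346.3 in testis, above all its 24 other arrays, and its tissue means had r = -0.32 with those of mouse Fut1. The human FUT9 tissue means had r = -0.03 with those of mouse Fut9.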
